A study of Mus musculus with 12 samples.

Results

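The hippocampus of APPsα-DM mice was compared with that of APLP2-KO mice on 6 expression arrays, 3 per genotype, out of 12 arrays in the series. The other 6 arrays hold prefrontal cortex of the same genotypes. APLP2-KO mice are APLP2-/-, and APPsα-DM mice are APPα/αAPLP2-/-, so both lack APLP2 and only the second carries the edited App alleles. All animals were adult female C57BL/6 mice, 38 to 40 weeks old, after 6 generations of back-crossing. The design gives 3 mice per genotype over both tissues, so hippocampus and cortex arrays share animals as far as the design tells, and the labels do not say which pairs do. No wild type was analysed here, so every difference below is between mice that all lack APLP2. All 45037 probe sets that are not array controls were tested, and 34945 of them name 1 gene (18193 genes).

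APP, the amyloid precursor protein, is a membrane protein of neurons and other cells that secretases cut. Alpha-secretase releases the ectodomain APPsα, and beta- and gamma-secretase release the amyloid-beta peptide and an intracellular domain. APLP1 and APLP2 are its relatives, and overlapping roles of the family in synapses are well known. The APPα allele is generally described as leaving only the secreted ectodomain, so the comparison asks how hippocampal RNA differs once APP no longer spans the membrane.

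The tissue carried the markers of hippocampus. In APLP2-KO mice, Dsp and C1ql2, markers of dentate granule cells, were 5.36 and 4.16 log2 units higher in hippocampus than in cortex (limma adjusted p = 1.03e-06 and 1.6e-08). Prox1, a transcription factor of granule cells, was 1.17 higher (4.11e-05), and Fibcd1, a marker of CA1 pyramidal cells, was 3.32 higher (6.78e-09). The signal of choroid plexus, a secretory epithelium of the ventricles next to the hippocampus, was unequal between the arrays. Ttr, which encodes its carrier protein transthyretin, read 10.63, 13.43 and 14.21 log2 units in APLP2-KO replicates 1 to 3 and 14.34, 11.83 and 14.36 in APPsα-DM replicates 1 to 3. The 2 arrays lowest in Ttr were 1 of each genotype. The mean of 28 choroid plexus genes was 6.202, 6.621 and 7.333 in APLP2-KO and 8.323, 6.267 and 7.859 in APPsα-DM. By that mean APLP2-KO replicate 2 was low as well. Array medians lay between 5.86 and 5.91, and hippocampus arrays correlated at r = 0.99515 to 0.99714 across genotypes (9 pairs) and at 0.99467 to 0.99721 within a genotype (6 pairs).

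App and Timmdc1 were the named genes that differed between the genotypes. Past an adjusted p of 0.05 lay 4 of 45037 probe sets (0.00888%), 1 higher in APPsα-DM (0.00222%) and 3 lower (0.00666%). An unadjusted p under 0.05 was found for 1852 probe sets (4.11%), and in cortex for 2027 (4.5%). All 3 arrays of a genotype lay above all 3 of the other for 4.1% of probe sets that were higher in APPsα-DM and 5.78% that were lower. Every adjusted p is limma's, two-sided, over all probe sets, and errors of differences are standard errors.

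App probe set 1 read 12.61, 12.50 and 12.49 log2 units in APLP2-KO hippocampus and 7.87, 7.95 and 7.98 in APPsα-DM hippocampus. The groups lay far apart, and the spread within each was small. The difference was -4.60 ± 0.111 (n = 3 each, 95% interval -4.84 to -4.36), or 24.3-fold lower, with an adjusted p of 7.06e-10. App probe set 2 is the brightest of the gene and read 13.49, 13.44 and 13.47 against 11.54, 11.46 and 11.66. It fell by 1.91 ± 0.0691, or 3.76-fold (adjusted p = 3.1e-08), so that the probe sets of this gene fell by unequal amounts. The dim App probe sets 3 and 4 differed by 0.05 and -0.19 and did not pass. The place of these probes in the edited allele was not analysed here, so less App RNA and loss of probe target cannot be told apart. An unnamed probe set read 9.83, 9.68 and 9.73 against 6.09, 6.32 and 6.45, a fall of 3.46 ± 0.0971 or 11-fold (adjusted p = 2.16e-09).

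Timmdc1, on chromosome 16 like App, was the gene that rose; its protein helps to assemble complex I of the respiratory chain. It read 6.59, 6.53 and 6.52 in APLP2-KO and 7.44, 7.59 and 7.28 in APPsα-DM. All APPsα-DM arrays were above all APLP2-KO arrays, by 0.89 ± 0.0976 (95% interval 0.679 to 1.10) or 1.85-fold (adjusted p = 0.00909). The difference lay between 0.81 and 0.97 in 16 alternatives, but the call was kept in only 8 of them. The adjusted p was 0.0894 without APLP2-KO replicate 2, 0.088 without APLP2-KO replicate 3, 0.0717 without APPsα-DM replicate 1 and 0.0597 without APPsα-DM replicate 2. It was 0.165 without the 2 arrays lowest in Ttr. With the 6 hippocampus arrays fitted alone it was 0.134, with a replicate block on them 0.32, and with quantile normalisation of them 0.147.

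**Figure D1:**
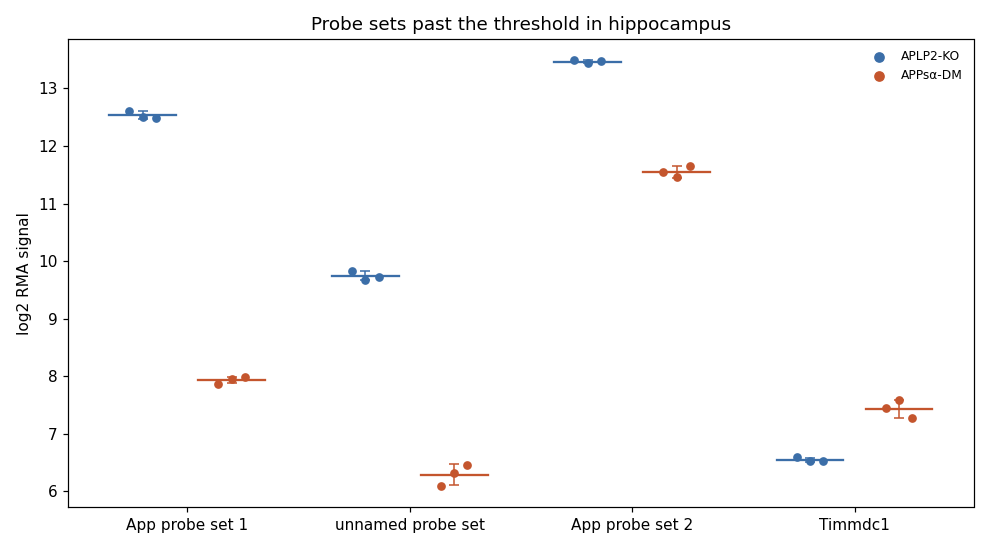
Log2 RMA signal of the 4 probe sets past the threshold on each hippocampus array (points; line and bar, mean ± SD of 3 arrays). App probe set 1 lies near 12.5 in APLP2-KO and below 8 in APPsα-DM, and Timmdc1 lies above 7.2 in APPsα-DM alone.

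No difference was detected in the relatives of App. Aplp1 probe set 2 read 13.17, 13.20 and 13.22 against 13.17, 13.18 and 13.18, a difference of -0.02 (95% interval -0.139 to 0.101). Aplp2 probe set 1 read 9.85, 10.03 and 10.14 against 9.89, 9.84 and 10.09, a difference of -0.07 (-0.281 to 0.147). Aplp2 is knocked out in both genotypes, and the position of its probes relative to the deletion was not analysed here. Of 15 measured genes of the APP family and its secretases, App passed, and the list had a median difference of 0.00076 against 0.00822 over all genes. Bace2, a protease related to beta-secretase, read 6.29, 6.24 and 6.19 against 5.89, 6.06 and 6.19 and did not pass. Psen2, a catalytic subunit of gamma-secretase, differed by 0.12 (-0.0208 to 0.267), and Adam17, an alpha-secretase, by 0.15 (-0.0685 to 0.37).

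The next genes in order of p did not pass the threshold, and many were dim. The 30 probe sets of smallest p held 15 higher and 15 lower, 12 with a mean of at least 6 log2 units. B9d1, a protein of the transition zone of cilia, read 7.76, 7.77 and 7.68 against 8.25, 8.40 and 8.16 (difference 0.54 ± 0.0804, adjusted p = 0.186). Cdk5rap1, an RNA-modifying enzyme of mitochondria, read 8.27, 7.89 and 7.87 against 7.29, 7.30 and 7.35 (-0.70 ± 0.107, adjusted p = 0.197). Neither pair of groups overlapped, and in cortex the differences were 0.29 and -0.60. Igfbp6, a binding protein of insulin-like growth factors, read 8.22, 7.87 and 7.42 against 8.70, 8.79 and 8.43 (0.80 ± 0.161, adjusted p = 0.711).

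Further named genes among the 30 smallest p were mostly dimmer. Among those that were higher, Foxj1, Cfap52, Efcab7 and B9d1 belong to the cilia list described below. Pdgfd, a platelet-derived growth factor, read 3.53, 3.61 and 3.31 against 4.77, 3.91 and 4.31 (0.85 ± 0.174), near the lower end of the signal range. Its other probe sets differed by -0.01 and, in the brightest, by 0.12. Bmp1, a protease that cuts procollagen, differed by 0.39 in 1 probe set, and by 0.12 in its brightest and 0.11 in the third. Dsg2, a cadherin of desmosomes, differed by 0.41 in 1 probe set and by -0.10 to 0.38 in the other 5. Tmc6, a transmembrane channel-like protein with a single probe set, differed by 0.37. Among those that were lower, Tnc, a matrix glycoprotein of astrocytes, read 6.17, 6.17 and 6.07 against 5.73, 5.79 and 5.86 (-0.34 ± 0.0747, adjusted p = 0.846), while its dim probe set differed by 0.00. Fdft1, the squalene synthase, differed by -0.39 in a dim probe set and by -0.22 in its brightest one. Bcl2l10, a relative of the apoptosis regulator Bcl2, differed by -0.51, and Mc1r, a melanocortin receptor, by -0.30 and -0.27 in its probe sets. Kat6a, a histone acetyltransferase, differed by -0.38 in a dim probe set, by 0.00 in its brightest and by -0.09 in the third.

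Among brighter genes, those with the largest differences without overlap included some that rest on single arrays. Acvr1c, an activin receptor, read 7.51, 7.41 and 7.56 against 7.61, 8.57 and 8.01 (0.57 ± 0.196). Its APPsα-DM replicate 2 was far above the other arrays. Car12, a carbonic anhydrase, read 7.41, 7.42 and 7.85 against 8.32, 7.92 and 8.34 (0.63 ± 0.255), and its dimmer probe sets differed by 0.06 and 0.13. Cldn1, a claudin of tight junctions that is in the choroid plexus list, differed by 0.45 in its brightest probe set and by -0.02 to 0.06 in the other 3. Zfp39, a zinc finger protein, differed by -0.40 in its brighter probe set and by -0.01 in the other, and Dubr, a long noncoding RNA, by -0.39. None of these passed the threshold.

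Genes with several probe sets show how far such differences reach. Clec14a, a lectin of endothelial cells, differed by 0.52 and 0.37 in its probe sets, neither overlapping between the genotypes. Slc35a5, a nucleotide sugar transporter, differed by -0.40 in its brightest probe set and by -0.13 to -0.36 in the other 4. Ccdc80, a matrix protein, read 7.03, 7.02 and 6.45 against 7.56, 7.56 and 7.58 (0.73 ± 0.128, adjusted p = 0.508), while its other probe set differed by 0.08. Bcorl1, a transcriptional corepressor, differed by -0.45 in a dim probe set and by 0.03 in a brighter one. Senp7, a SUMO protease, differed by -0.31 in 1 probe set and by -0.01 and 0.06 in the others.

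**Figure D2:**
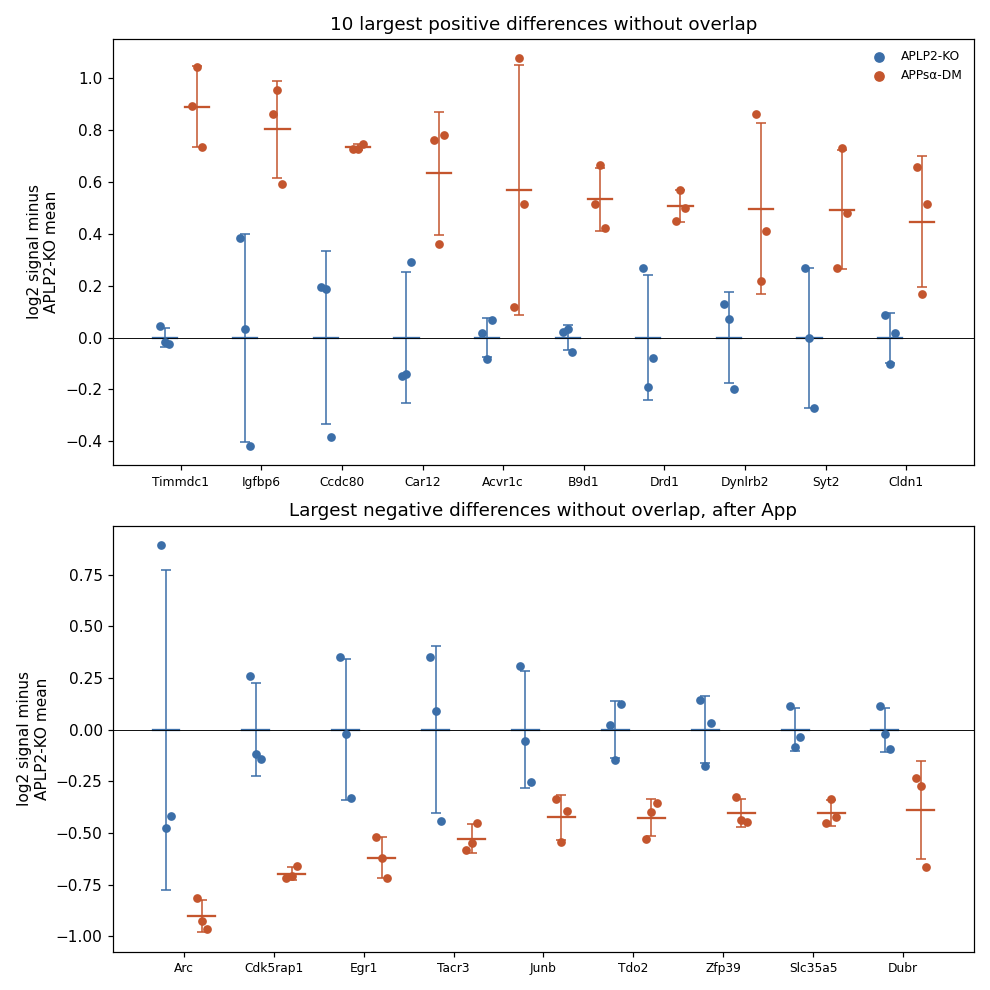
Log2 signal minus the APLP2-KO mean on each hippocampus array (points; line and bar, mean ± SD of 3 arrays), for the genes with a mean of at least 6 log2 units and the largest differences without overlap of the genotypes. Arc is spread by 1 high APLP2-KO array, and Timmdc1 is the 1 gene shown that passed the threshold, since App, which falls under the same rule, is left out for scale.

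Chromosome 16 carries App. Of the 30 probe sets of smallest p, 5 were unnamed and had no chromosome. On chromosome 16 lay 6, with App probe sets 1 and 2 among them, against 3.6% of the probe sets with a chromosome. Arrays of 1 genotype all exceeded those of the other for 64 of 592 genes on chromosome 16 (10.8%), against 10.4% of genes elsewhere. With an unadjusted p under 0.01 as well, the shares were 1.86% and 0.688%. The same direction without overlap in both tissues was seen for 16 of 592 genes (2.7%) against 0.849% of the others, and among them were App, Timmdc1, Ccdc80, Slc35a5 and Senp7.

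Immediate early genes, which neurons transcribe within minutes of activity, were mostly lower in APPsα-DM, and none passed the threshold. Of 39 genes, 28 were below 0, against 45.8% of all genes, and the median was -0.146. In 10 the genotypes did not overlap, all lower, against 5.34% of all genes that were lower without overlap, and 4 had an unadjusted p under 0.05 and were lower, against 1.98% of all genes. Egr1, a zinc finger transcription factor, read 11.63, 11.26 and 10.95 against 10.76, 10.66 and 10.56 (-0.62 ± 0.168, adjusted p = 1). Arc, which regulates AMPA receptor uptake, read 9.71, 8.34 and 8.40 against 8.0, 7.89 and 7.85 (-0.90 ± 0.513), and Npas4, a transcription factor of active neurons, 6.82, 5.40 and 5.33 against 4.96, 5.04 and 5.30. APLP2-KO replicate 1 was the highest array for each of these. The list mean was 8.574 on that array, 8.194 and 8.141 on the other APLP2-KO arrays, and 8.072 to 8.109 in APPsα-DM. Without that array the median was -0.0581. In cortex the list had a median of -0.158, with 27 of 39 genes below 0. Junb, Dusp5, Dusp6 and Egr4 differed in hippocampus by -0.43, -0.34, -0.37 and -0.34.

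The promoters of these genes are shown for the element TGACGT, the core of the site of CREB, a factor activated by neuronal activity. The 250 bases before the start, on either strand, held it in 14 of 30 genes of the list with a promoter (46.7%) and in 7.3% of all 27025 genes. RefSeq sequences (GRCm38.p6) of Egr4 and Dusp5 follow, 5′ to 3′ along the gene, with matches in capitals; both were picked because they hold it. A match is a description of the sequence, and binding was not measured.
Egr4, chr6:85513590-85513839 (minus strand): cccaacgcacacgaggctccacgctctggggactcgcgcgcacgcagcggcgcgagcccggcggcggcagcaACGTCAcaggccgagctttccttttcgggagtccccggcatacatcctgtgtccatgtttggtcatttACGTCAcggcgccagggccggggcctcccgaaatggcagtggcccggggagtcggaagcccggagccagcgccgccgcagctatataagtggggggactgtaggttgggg
Dusp5, chr19:53528895-53529144 (plus strand): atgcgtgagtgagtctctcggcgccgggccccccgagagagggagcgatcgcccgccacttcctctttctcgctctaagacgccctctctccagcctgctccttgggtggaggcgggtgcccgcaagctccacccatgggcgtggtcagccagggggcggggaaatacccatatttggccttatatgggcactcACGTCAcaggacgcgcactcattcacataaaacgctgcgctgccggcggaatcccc
In all, 15 motifs were searched over 4 lists, and the 3 given here were chosen after their counts had been seen. Among the rest, the full palindrome TGACGTCA was in 4 of the 30 promoters (1.8% of all genes), and the serum response element in 2 (1.6%).

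Receptors and synaptic genes lay close to 0. The AMPA and kainate receptor list had a median of 0.0291 (18 genes), NMDA and metabotropic receptors 0.036 (12), the postsynaptic scaffold 0.0241 (21), vesicle release 0.00279 (45) and plasticity kinases -0.0102 (24). None of these genes passed. Gria1, the AMPA receptor subunit GluA1, read 11.44, 11.56 and 11.77 against 11.60, 11.68 and 11.60, with a 95% interval of -0.187 to 0.258. Gria2 differed by 0.00 (-0.156 to 0.157). Homer2, a postsynaptic scaffold protein, read 10.30, 10.21 and 10.17 against 10.02, 10.03 and 9.94 (-0.23 ± 0.0877), and Syt2, a calcium sensor of fast release, 7.40, 7.13 and 6.86 against 7.40, 7.86 and 7.61 (0.49 ± 0.149). Neither passed, and the mean of the Syt2 probe sets differed by 0.13. Among inhibitory neuron genes, Pvalb, a calcium buffer, differed by 0.27 without overlap, and Gad1, which makes GABA, by 0.09.

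Markers of the principal neurons differed little. CA pyramidal markers were below 0 in 18 of 24 genes (median -0.0769), and dentate markers were above 0 in 12 of 22 (0.0348). Tdo2, a tryptophan-degrading enzyme of granule cells, read 7.46, 7.29 and 7.56 against 6.91, 7.04 and 7.08. Neither list holds Drd1 or Tacr3. Drd1, a dopamine receptor taken here as a striatum marker, was lower in hippocampus than in cortex (-2.53 in APLP2-KO). It read 7.74, 7.28 and 7.39 against 7.92, 8.04 and 7.97, and its other probe set differed by 0.38 without overlap. Tacr3, a neurokinin receptor, read 7.45, 7.19 and 6.66 against 6.52, 6.55 and 6.65. In these bulk samples, fewer cells of a type and less RNA per cell cannot be told apart.

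Endothelial and pericyte genes were higher in APPsα-DM almost throughout, and none passed the threshold. Of 39 genes, 37 were above 0, against 54.2% of all genes, with a median of 0.163. In 12 the genotypes did not overlap, all higher, against 5.13% of all genes, and 12 had an unadjusted p under 0.05, against 2.04% of all genes that were higher. Kdr, a VEGF receptor, read 7.06, 7.03 and 6.78 against 7.29, 7.5 and 7.30 (0.41 ± 0.131). Emcn, a sialoglycoprotein of the endothelial surface, read 7.03, 7.18 and 7.03 against 7.66, 7.43 and 7.36 (0.40 ± 0.0979). Pecam1, an adhesion molecule of endothelium, differed by 0.28, Flt1 by 0.27 and Rgs5, a pericyte gene, by 0.17, each without overlap. The list mean was 7.723 in APPsα-DM replicate 1 and 7.405 to 7.581 on the other 5 arrays. Without that replicate the median was 0.0836. Its choroid plexus and leptomeningeal signals were also the highest. With the choroid plexus list mean of each array as a covariate, the endothelial median was 0.135, with 35 of 39 above 0. In cortex the median was 0.0458, with 31 of 39 above 0.

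Choroid plexus genes were above 0 in all 28 measured genes, against 54.2% of all genes, with the largest list median (0.704). In cortex 20 of the 28 were above 0 (median 0.146). The hippocampus arrays of the genotypes did not overlap in 1 gene, which was higher, against 5.13% of all genes. An unadjusted p under 0.05 was found for 2 that were higher, against 2.04% of all genes. None passed the threshold. The median was 0.324 without APPsα-DM replicate 1 and 1.3 without APPsα-DM replicate 2. The list mean was 6.202, 6.621 and 7.333 in APLP2-KO and 8.323, 6.267 and 7.859 in APPsα-DM, which overlap (difference 0.764, exact permutation p = 0.3, two-sided, smallest possible 0.1). Kcne2, a potassium channel subunit of this epithelium, read 4.20, 5.17 and 6.63 against 8.19, 4.37 and 7.53. Folr1, a folate carrier, and Otx2, its transcription factor, differed by 1.10 ± 0.952 and 1.48 ± 0.996. Of the 126 probe sets at least 0.5 log2 units higher in APPsα-DM, 48 belong to this list. Smooth muscle and leptomeningeal genes had a median of 0.194, with 29 of 35 above 0, but -0.105 with 9 of 35 above 0 without APPsα-DM replicate 1. Igf2 and Igfbp2, of leptomeninges and choroid plexus, read 10.92 and 10.07 in that replicate.

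Cilia and ependyma genes were also higher in most cases, and none passed. Of 49 genes, 42 were above 0 (median 0.164). In 10 the arrays did not overlap and were higher, against 5.13% of all genes, and in 1 they were lower. Foxj1, the master regulator of motile cilia, read 5.80, 5.64 and 5.79 against 6.38, 6.26 and 6.07 (0.49 ± 0.096, adjusted p = 0.626). Dynlrb2, a light chain of dynein, read 7.03, 6.97 and 6.70 against 7.76, 7.12 and 7.31 (0.49 ± 0.207), and Cfap126, a protein of the ciliary base, differed by 0.39. The median was 0.0977 without APLP2-KO replicate 3 and 0.106 without APPsα-DM replicate 1. In cortex it was 0.0795, with 35 of 49 above 0. Ependyma lines the same ventricles as choroid plexus, whose signal differed between the hippocampus arrays. With the choroid plexus list mean as a covariate, the median was 0.125, with 39 of 49 above 0, Dynlrb2 differed by 0.30 and Cfap126 by 0.25. The promoter of Dynlrb2 is shown for GTTGCC, part of the site of RFX factors of ciliated cells, which was in 15 of 39 promoters of the list (38.5%) and of 11.8% of all genes. The promoter of B9d1 held no match in these 250 bases.
Dynlrb2, chr8:116504765-116505014 (plus strand): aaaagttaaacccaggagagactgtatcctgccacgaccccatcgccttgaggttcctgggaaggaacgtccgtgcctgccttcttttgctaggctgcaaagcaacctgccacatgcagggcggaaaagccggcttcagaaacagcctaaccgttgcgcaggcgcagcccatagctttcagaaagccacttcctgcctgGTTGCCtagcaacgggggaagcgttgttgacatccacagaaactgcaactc

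Cholesterol synthesis genes were below 0 in 23 of 29 cases (median -0.116), against 45.8% of all genes, and none passed. In 2 the genotypes did not overlap and were lower, and in 2 they were higher. Over all genes these shares were 5.34% and 5.13%. The first 2 genes given here are the lower ones. Idi1, an isomerase of the isoprenoid pathway, read 9.63, 9.48 and 9.22 against 9.21, 9.16 and 9.04 (-0.31 ± 0.105). Msmo1, a sterol demethylase, read 10.34, 10.23 and 10.05 against 10.04, 9.93 and 9.94 (-0.24 ± 0.0816). Sqle, Cyp51 and Hmgcs1, further enzymes of the pathway, differed by -0.25, -0.19 and -0.17, with overlap of the genotypes. The median was -0.068 without APLP2-KO replicate 1 and -0.0742 without replicate 2. In cortex it was -0.0902. The Idi1 and Msmo1 promoters are shown for CCAAT, the site of NF-Y, which was in 20 of 23 promoters of the list (87%) and in 37.5% of all genes. The sterol response core TCACNCCAC was in 1 of the 23 (1.2% of all genes).
Idi1, chr13:8885356-8885605 (plus strand): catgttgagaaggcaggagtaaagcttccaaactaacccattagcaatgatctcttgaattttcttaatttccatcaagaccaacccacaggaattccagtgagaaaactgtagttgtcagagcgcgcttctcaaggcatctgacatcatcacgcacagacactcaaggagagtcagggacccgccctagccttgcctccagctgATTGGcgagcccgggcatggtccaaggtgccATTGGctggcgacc
Msmo1, chr8:64733579-64733828 (minus strand): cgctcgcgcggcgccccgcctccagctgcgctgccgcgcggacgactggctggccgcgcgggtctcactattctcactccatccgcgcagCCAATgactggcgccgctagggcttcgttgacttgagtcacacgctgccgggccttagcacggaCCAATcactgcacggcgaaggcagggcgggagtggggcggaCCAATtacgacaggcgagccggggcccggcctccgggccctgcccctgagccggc

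The mitochondrial lists held small differences beside Timmdc1. Respiratory chain genes were above 0 in 40 of 47 cases, with a median of 0.0323 and no difference above 0.106. Complex I assembly factors had a median of 0.0703 (16 genes), and 0.00947 without APLP2-KO replicate 3. Ndufaf6, another assembly factor, differed by 0.08. Glial lists had medians near 0: astrocytes -0.0107 (32 genes), microglia -0.0233 (35) and oligodendrocytes -0.0439 (29). Below 0 were 17, 22 and 26 of these genes, in that order, against 45.8% of all genes. Without APLP2-KO replicate 1 the oligodendrocyte median was 0.0334, with 23 of 29 above 0. None of these glial genes passed.

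**Figure D3:**
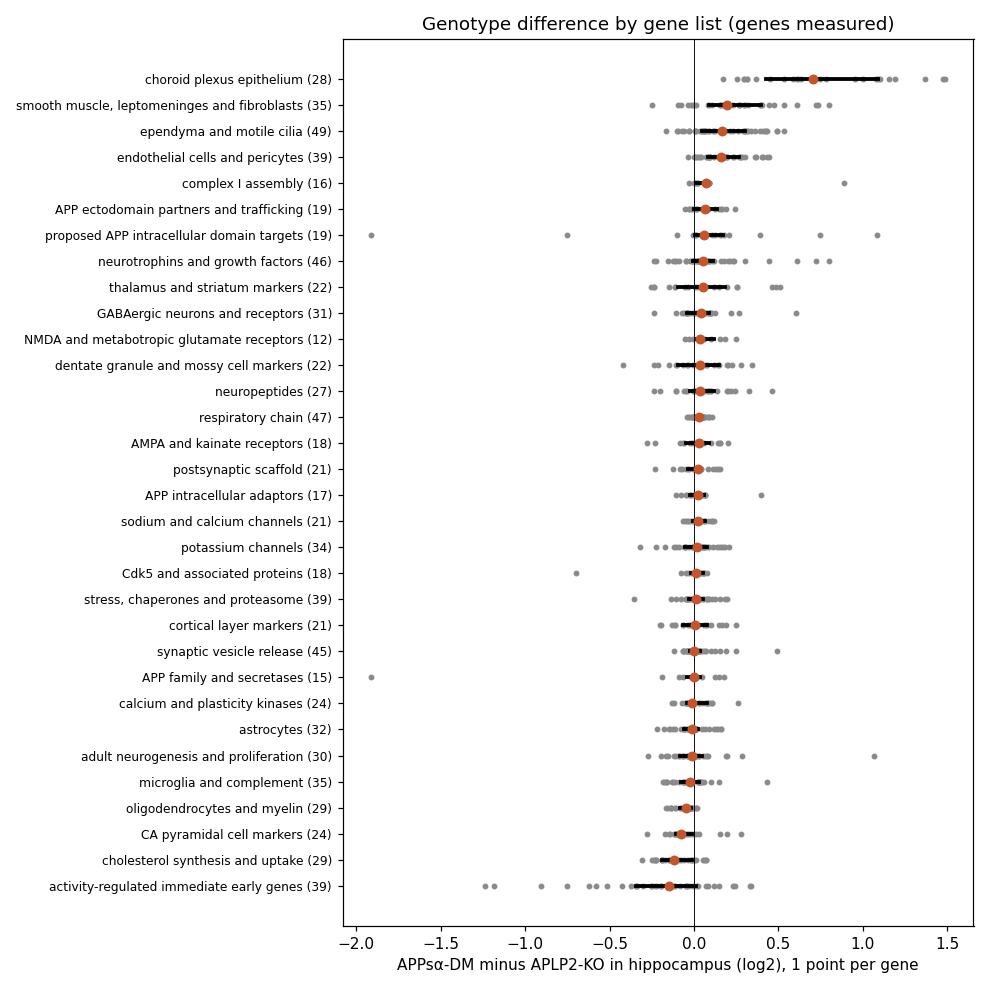
Difference between the genotypes in hippocampus (log2, horizontal) for each measured gene (grey points) of 32 lists (number measured in brackets), with the list's median (orange) and quartiles (black bar). Choroid plexus lies farthest above 0 (0.704) and immediate early genes farthest below (-0.146).

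**Figure D4:**
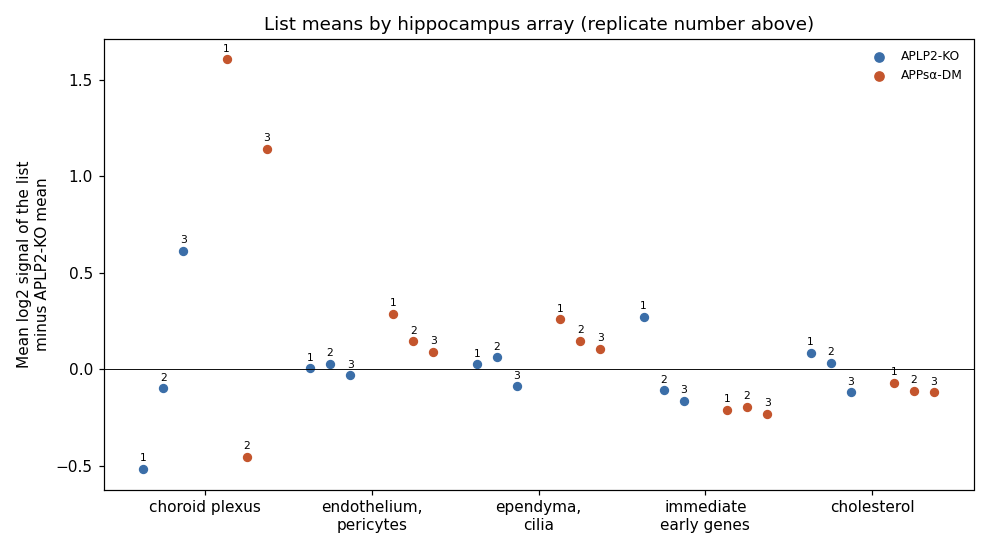
Mean log2 signal of 5 lists on each hippocampus array minus the APLP2-KO mean, with the replicate number above each point. The choroid plexus points of the genotypes overlap, and APLP2-KO replicate 1 is the highest for immediate early genes.

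Hippocampus and cortex were then compared for the size of the genotype difference. The fit took the arrays as independent. No probe set passed in that test (limma, 0 of 45037, 0%), and 1705 (3.79%) had an unadjusted p under 0.05. App probe set 1 differed by -4.67 in cortex, a difference between tissues of 0.07 ± 0.157, and Timmdc1 by 0.84 (0.05 ± 0.138). Of the 30 probe sets of smallest p in hippocampus, 19 had the same sign in cortex, and 10, the 4 called probe sets included, did not overlap there in the same direction. All 30 had been chosen on their hippocampus values and did not overlap there, so a share over all genes is not a like comparison. In hippocampus 1905 of 18193 genes (10.5%) did not overlap. Of the genes with a chromosome, 164 (0.91%) did not overlap the same way in both tissues. Egr1 differed by -0.62 in hippocampus and 0.03 in cortex, and Igfbp6 by 0.80 and -0.12, and neither difference between tissues passed (adjusted p = 1 for both). The smallest p in that test belonged to Cplane1, a ciliogenesis protein (-0.14 in hippocampus, 0.39 in cortex), Prokr2, a prokineticin receptor (-0.12, 0.53), Tyrp1, a melanin enzyme (-0.28, 0.38), Vps54, a subunit of a vesicle tether (-0.29, 0.24) and Efcab12 (0.44, -0.22). Each had an adjusted p of 1.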

How the data were processed

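RNA of 12 tissue samples was hybridised to Affymetrix arrays, 1 per sample. The authors deposited log2 values made with RMA and the affy package, per the submitters' processing notes; neither their versions nor a joint normalisation of all arrays is given in the sources used here. From these values, lmFit and eBayes of limma 3.58.1 (R 4.3.3) fitted 4 groups over 12 arrays, with Benjamini-Hochberg adjustment over 45037 probe sets and a threshold of 0.05; the script was tested on simulated data. The 64 control probe sets were left out, and no filter on dim signals was used. A gene in a list is its probe set of highest mean. Precision is limited by 3 arrays per group, with a median SE of 0.0938. Where nothing ties arrays to separate animals beyond the stated mice, p-values measure the spread between these samples. Gene symbols came from the platform annotation, and 34741 probe sets matched the reference table.

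The comparison, its 32 lists and the genes were chosen with earlier results of these data known. The rule for named genes took App, Aplp1 and Aplp2, called genes, the 30 smallest p, the 10 largest differences each way without overlap, list members of smallest p or highest mean, 5 tissue differences and cell type markers. It gave 282 probe sets, and the genes printed were picked from these with their values in view; 1 gene of the 30 smallest p is not reported here. Promoter motifs were likewise chosen after their counts were seen (15 searched). Alternatives changed the arrays, blocks, scaling, filter, variance model and probe set summary.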

Additional observations from a re-analysis of the deposited data

How the results depend on the processing

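The count of probe sets past the threshold was 4. It was 3 to 5 in the alternatives run on probe sets, leaving out single arrays included, and 2 with each gene's probe sets averaged, where fewer features are tested. Genes of the lists past the threshold numbered 2, and 1 with the 6 hippocampus arrays alone, the replicate block on these 6, quantile normalisation or without the 2 arrays lowest in Ttr; leaving out single arrays gave 1 to 2. The tissue difference gave 0 calls in every setting run. Deviations of same-numbered hippocampus arrays of the genotypes correlated at 0.118, 0.0288 and 0.206. As 1 of these is under 0.1, the numbers were not taken to pair the arrays, although each number correlated best with its own, a hint from the data and not the design. The replicate block on the 6 hippocampus arrays gave 4 calls, without Timmdc1 (adjusted p = 0.32) and with an unnamed probe set (-1.45, adjusted p = 0.0357). The replicate block on 12 arrays gave 5, with Timmdc1 (0.0164) and that probe set (0.00821). Same-numbered hippocampus and cortex arrays correlated at 0.109, 0.131 and 0.155 in APLP2-KO and 0.0785, 0.0193 and 0.0372 in APPsα-DM; with genotype and number as a random block (correlation 0.0744) there were 4 calls, and 0 for the tissue difference. Clec14a passed without APLP2-KO replicate 1 (0.66, adjusted p = 0.03).

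Signs turned in these cases, whose cause was not tested. With the choroid plexus score, which is the mean of that list on each array, as a covariate, Kcne2 was -0.174, Folr1 -0.163 and Ttr -1.22. The score is itself built from choroid plexus genes, so values of such genes with this covariate are not independent of it. With the same covariate, Aplp2 probe sets 2 and 5 were -0.047 and 0.042. With each gene's probe sets averaged, Bace2 was 0.081, App -1.663 (against 0.05 for its dim probe set 3), Aplp1 0.01, Aplp2 -0.043 and Gria2 -0.03. The App average holds its probe sets 1 and 2, which differed by -4.6 and -1.91. Other values kept their sign but moved by over 1.5 times. Averaged, Tacr3 was -0.32, Flt1 0.14, Rgs5 0.10, Psen2 0.03, Adam17 0.01, Igf2 0.37, Vps54 -0.01, Tyrp1 -0.07, Cplane1 -0.05 and Prokr2 -0.21. With the covariate, Arc was -0.52, Junb -0.23, Dusp6 -0.22, Car12 0.38, Cldn1 0.23, Igf2 0.28, Igfbp2 0.32 and Otx2 0.16. Cfap52 probe set 1 went from 0.42 to 0.17 with the covariate. Cfap52 probe set 2, which is the one among the smallest p, moved less, from 0.61 to 0.55. Signs also turned without the 2 arrays lowest in Ttr, where Gria1 was -0.063, Gria2 -0.057 and Aplp2 probe set 5 was 0.225. Quantile normalisation gave -0.014 and 0.02 for Aplp2 probe sets 2 and 5, and centring gave 0.007 for the latter. Leaving out single arrays gave -0.054 to 0.123 for App probe set 3, -0.315 to 1.588 for Ttr, -0.039 to 0.126 for Gria1, -0.042 to 0.059 for Gria2, -0.348 to 0.176 for Dsp, -0.02 to 0.026 for Aplp2 probe set 2 and -0.106 to 0.122 for its probe set 5.

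The genes printed changed sign less often than the rest that the naming rule gave. They were picked with their values in view, and the reason for the lower share was not tested. Over all 282 probe sets of the rule, 189 of 4459 values in alternatives changed sign (4.24%). For the 88 printed it was 29 of 1380 (2.1%), and for the other 194 it was 160 of 3079 (5.2%).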
